A study of Mus musculus with 58 samples.

Results

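Genes of voltage-gated and inward-rectifying ion channels were followed through 58 RNA sequencing libraries of mouse prefrontal cortex at postnatal day 25. The set took every protein-coding gene whose symbol names a sodium channel subunit (Scn), a calcium channel pore, beta, gamma or alpha2delta subunit (Cacn), a potassium channel of the Kcna, Kcnb, Kcnc, Kcnd, Kcnh, Kcnj, Kcnq or Kcnt families, or a hyperpolarisation-activated cation channel (Hcn). The annotation lists 91 such genes, and 85 of the 18088 genes in the table were among them: 12 sodium, 25 calcium, 44 potassium and 4 HCN channel genes. Scn4a, Scn11a, Cacng1, Kcna7, Kcna10 and Kcnj1 were not analysed here. A minimum mean of 10 normalised read counts over all libraries left 83 of the 85 for testing, without Cacna1f and Kcnj15.

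The mice were C57BL/6J, heterozygous for a Tbl1xr1 knock-in (KI) allele (HT) or wild type (WT), and both sexes were used. Pups received fluoxetine, lithium or vehicle in maternal milk from day 3 to day 24. HT fluoxetine, HT lithium, HT vehicle, WT fluoxetine and WT vehicle each held 5 male and 5 female libraries, and WT lithium held 4 of each sex. The labels name neither the change made to the allele nor a dam or litter. Because the drug reached the pups through the dam, drug and litter cannot be told apart. The p-values measure the spread between libraries, which the labels do not state to be separate animals.

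Sodium channels carry the rising phase of the action potential, calcium channels couple depolarisation to transmitter release and gene expression, and potassium channels set the resting potential, repolarise the spike and limit repetitive firing. HCN channels open on hyperpolarisation and carry a mixed cation current that shapes dendritic integration and rhythmic firing. Sodium and calcium channels pair a pore-forming subunit with accessory subunits that set its trafficking and gating. Several gamma subunits of the calcium channel family, the TARPs, act mainly on AMPA-type glutamate receptors.

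The promoter windows of 3 genes are shown because Kcnj4 was the only channel gene that changed with either drug over both genotypes, and Cacng5 and Scn4b varied most between libraries among members with a mean of at least 50. Each window is a RefSeq sequence on GRCm38.p6 of 300 bases, from 250 before to 50 after an annotated start, written 5′ to 3′ on the gene's strand, with GC boxes (GGGCGG on either strand) in capitals. The Kcnj4 window is chr15:79505192-79505491 on the minus strand, the Cacng5 window is chr11:107915006-107915305 on the minus strand and the Scn4b window is chr9:45138374-45138673 on the plus strand.
Kcnj4: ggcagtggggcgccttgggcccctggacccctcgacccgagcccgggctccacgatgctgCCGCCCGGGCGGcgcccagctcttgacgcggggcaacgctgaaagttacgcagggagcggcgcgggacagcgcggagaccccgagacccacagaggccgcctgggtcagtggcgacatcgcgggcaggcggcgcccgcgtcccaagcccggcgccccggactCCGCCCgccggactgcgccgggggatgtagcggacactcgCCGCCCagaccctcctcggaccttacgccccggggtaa
Cacng5: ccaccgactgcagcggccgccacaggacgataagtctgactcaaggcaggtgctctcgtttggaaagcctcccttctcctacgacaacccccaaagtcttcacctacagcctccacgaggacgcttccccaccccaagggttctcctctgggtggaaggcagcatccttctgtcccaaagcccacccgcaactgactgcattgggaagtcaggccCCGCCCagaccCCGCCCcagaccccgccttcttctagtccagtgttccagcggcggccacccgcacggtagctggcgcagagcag
Scn4b: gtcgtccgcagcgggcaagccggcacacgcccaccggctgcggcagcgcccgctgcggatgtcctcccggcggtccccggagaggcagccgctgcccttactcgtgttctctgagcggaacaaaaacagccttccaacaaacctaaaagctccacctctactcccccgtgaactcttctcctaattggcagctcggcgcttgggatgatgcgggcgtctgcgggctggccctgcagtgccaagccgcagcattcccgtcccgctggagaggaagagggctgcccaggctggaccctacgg
The RefSeq start used for Scn4b lay 229 bases inside the gene annotated by GENCODE M21. For Kcnj4 and Cacng5 the RefSeq and GENCODE starts were 0 bases apart. Kcnj4 held 4 GC boxes, Cacng5 held 2 and Scn4b held 0. The GC content was 76.0% for Kcnj4, 63.3% for Cacng5 and 66.3% for Scn4b. RefSeq windows matched 61 of the 85 channel genes, with 80 windows in all. A GC box lay in 39 of these 80 windows (48.8%), against 35.7% of all 32851 windows. The letters TATAAA on either strand lay in 6 channel windows (7.5%), against 13.6% of all windows. The cyclic AMP response element TGACGTCA, searched on both strands, was in 0 of the 80 windows, against 1.79% of all windows. The ratio of observed to expected CpG had a median of 0.527 in channel windows, against 0.384 in all windows. The letters of these 3 motifs allow no overlap between them, and a match describes the letters of a window only.

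Reads recovered from the values and summed over the 18088 listed genes ran from 22901678 to 35008274 per library. Tbl1xr1, the gene carrying the allele, averaged 2529 ± 113 normalised read counts in HT and 2069 ± 124 in WT (SD, n = 30 and 28), and the groups overlapped only where the lowest HT library, at 2276, lay under the highest WT library, at 2279. Slc17a7, the glutamate transporter of cortical excitatory neurons, lay between 36362 and 53378 in every library. Markers of a neighbouring region were also present. The summed counts of 10 olfactory bulb genes ran from 1188 to 23060 with a median of 2480 in HT, and from 1321 to 29703 with a median of 6410 in WT. All 10 were measured, and Eomes and Tbx21 were listed at 0 in their lowest library. In bulk tissue, fewer cells of a type and less RNA per cell cannot be told apart.

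Sodium channel genes covered a wide range of levels per kb of exon. The beta2 subunit gene Scn2b had 1525 ± 200.7 normalised read counts per kb (SD, n = 58). Among the pore genes named here Scn2a, which serves excitatory axons early in life, was highest at 867 ± 123 per kb. Scn8a, the main pore of the mature axon initial segment, had 668 ± 70.5 per kb, and Scn1a, best known from fast-spiking interneurons, had 391 ± 40.5. The level of Scn3b (694 ± 56.6 per kb) was above that of Scn8a in only 35 of 58 libraries, so these neighbours in the order were not apart beyond their spread. Pores of other tissues were low, as Scn9a of peripheral neurons had 4.65 ± 1.18 and Scn10a of sensory neurons had 1.27 ± 0.879, with libraries at 0.

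Calcium channel genes were led by accessory subunits and TARPs. Cacng7 had 2156 ± 186 normalised read counts per kb, Cacnb3 had 1951 ± 131 and Cacng3 had 1471 ± 154 (SD, n = 58 each). Cacng7 exceeded Cacnb3 in 47 of 58 libraries. Per kb the highest pore was Cacna1a, which carries the P/Q-type current of presynaptic terminals, at 549 ± 41.3. It was followed by the N-type pore Cacna1b at 458 ± 36.4. The R-type pore Cacna1e had 328 ± 27.3 per kb, though its mean of 8273 normalised read counts exceeded the 6269 of Cacna1a. Lengths counted every annotated exon base of a gene, 25228 for Cacna1e and 11418 for Cacna1a. The T-type pores Cacna1i and Cacna1g had 433 ± 34.6 and 385 ± 36.5 per kb, and Cacna1h had 207 ± 27.5. The L-type pores Cacna1d and Cacna1c were lower, at 182 ± 26.4 and 152 ± 21.6 per kb. Cacna1s, the pore of skeletal muscle, was the lowest member past the minimum, at 6.28 ± 2.83.

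Potassium channel genes were the largest class and held several abundant inward rectifiers. Kcnj4, a strong inward rectifier of forebrain neurons, had the highest mean, at 1796 ± 185 normalised read counts per kb, and exceeded its nearest neighbour Kcnj9 in 58 of 58 libraries. Kcnj9, a G protein-gated rectifier subunit, had 1103 ± 147 per kb, and Kcnj10, the main rectifier of astrocytes, had 876 ± 142 (SD, n = 58 each). Kcnh3 had 803 ± 65.6 per kb and Kcnj3 had 782 ± 65.2, and Kcnh3 was the higher in only 31 of 58 libraries. Kcnj5, a G protein-gated rectifier of the heart, was the lowest past the minimum at 2.68 ± 1.39 per kb. Hcn2 was the most abundant HCN gene at 793 ± 45.5 per kb, in 58 of 58 libraries above Hcn3 (163 ± 21.6). Hcn4, the pacemaker channel of the heart and of rhythmic relay neurons, was the lowest at 62.5 ± 19.2 per kb.

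**Figure D1:**
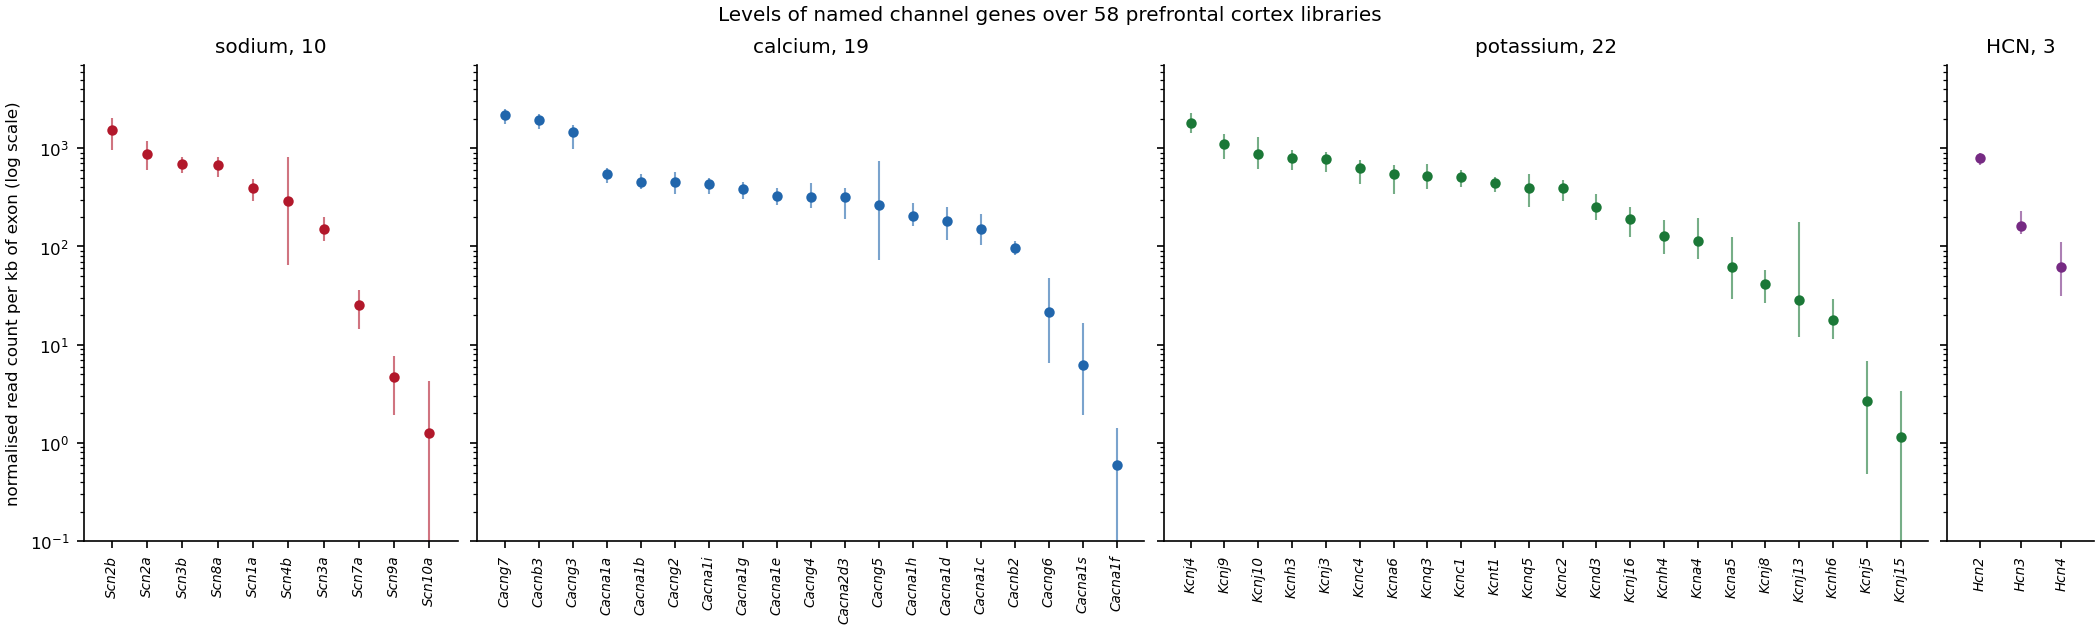
Normalised read count per kb of exon (log scale) for the channel genes named in the text, by class and in falling order. Points are means over 58 libraries and lines run from the lowest to the highest library; for Scn10a, Cacna1f and Kcnj15, whose lowest library is 0, the line runs to the axis floor. Cacng7 stands highest of those shown at 2156, and Cacng5 and Scn4b have long lines.

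The summed channel signal per kb was 40.8 ± 0.605% potassium, 34.3 ± 1.247% calcium, 21.9 ± 1.38% sodium and 3.02 ± 0.126% HCN (SD over 58 libraries). Accessory genes made up much of it. The 4 sodium channel beta subunits held 16.3 ± 1.37% of the channel signal, and the 8 sodium channel pores 5.58 ± 0.440%. The 14 inward rectifiers held 14.4 ± 0.495%.

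Between libraries of the same group, channel genes varied more than the median gene. The SD of log2(value + 1) after removing group means had a median of 0.183 over the 76 channel genes with a mean of at least 50, beside 0.135 over all 13696 genes with such a mean. Among the largest SDs were those of the TARP gene Cacng5 (1.01), the sodium channel beta subunit Scn4b (0.734), Kcna5 (0.504) and Hcn4 (0.431). Hcn2 was the steadiest, at 0.0806. Cacng5 ran from 277 to 2814 normalised read counts with a median of 691 over the 58 libraries. Scn4b ran from 322 to 4042 with a median of 1303.

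Many channel genes varied with the olfactory bulb markers of the same libraries, some rising and others falling with them. A score was taken as the mean of log2(value + 1) over the 10 bulb genes, and each channel gene was correlated with it after group means were removed. This scan of all 83 genes against the bulb and the striatal score was chosen after the data had been seen. Of 83 genes, 27 rose and 33 fell with the bulb score at an adjusted p under 0.05 (permutation test, two-sided, Benjamini-Hochberg over 166 relations). The smallest absolute r among these 60 was 0.315, and 42% of all 16606 genes tested had an absolute r of at least that size. An absolute r above 0.7 was reached by 19 of the 83 (22.9%), beside 6.15% of all genes, and all points share their libraries and sequencing depth.

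Cacng5 had Pearson r = 0.97 and Spearman rho = 0.97 with the bulb score (n = 58, adjusted p = 4.4e-05 and 4.9e-05, permutation tests), and r = 0.97 without the 2 libraries farthest from the median. Within treatments its r was 0.96 for fluoxetine, 0.97 for lithium and 0.98 for vehicle. In single libraries, Cacng5 had 2814 normalised read counts in WT vehicle male 2, where the score was highest at 10.9, and 281 in HT vehicle male 4, where it was lowest at 5.31. Hcn4 had 677 and 262 in these libraries, and its r was 0.87 (rho = 0.87, r = 0.85 without the 2 farthest). The A-type potassium channel Kcnd3 (r = 0.86), the L-type calcium pore Cacna1c (0.83) and Kcna4 (0.82) also rose with the score, each at an adjusted p of 4.4e-05 by permutation.

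Sodium channel genes did not share a sign in this relation. Scn3a, the pore of the immature brain, had r = 0.75 and the beta3 gene Scn3b had 0.69 with the bulb score. The beta2 gene Scn2b had r = -0.70 and the pore Scn8a -0.59 (adjusted p = 4.4e-05 each, permutation tests, n = 58). Among potassium channel genes low values were those of Kcna6 (r = -0.80), Kcnc4 (-0.74) and Kcnc2 (-0.70), of which Kcnc2 and Kcnc4 encode fast Kv3 channels. Of the HCN genes, Hcn4 and Hcn3 (r = 0.58) rose with the score, and Hcn2 (-0.56) fell.

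**Figure D2:**
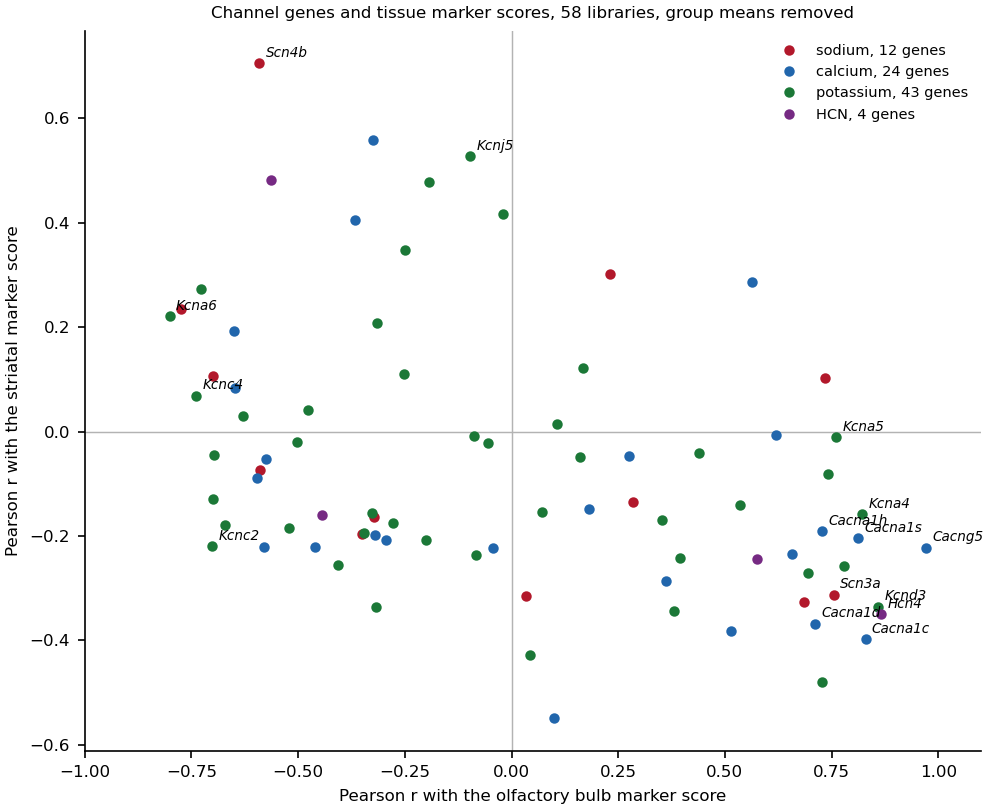
Pearson r of each of 83 channel genes with the olfactory bulb marker score (horizontal) and the striatal marker score (vertical), over 58 libraries with group means removed. Cacng5 lies at the right edge with r = 0.97, Kcna6 at the left with -0.80, and Scn4b highest for the striatal score with 0.71.

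The striatal score, from 10 genes of medium spiny neurons such as Drd1 and Adora2a, moved with fewer channel genes, 9 rising and 13 falling of 83. The smallest absolute r among these 22 was 0.303, and 17.3% of all genes had at least that. Only Scn4b, a beta subunit abundant in striatal neurons, passed an absolute r of 0.7 (r = 0.71, rho = 0.64, adjusted p = 4.4e-05, permutation test), beside 0.446% of all genes. Its r was 0.64 without the 2 farthest libraries, HT vehicle female 5 and HT lithium female 2. These held 4042 and 3808 normalised read counts of Scn4b, above every other library. Scn4b also fell with the bulb score, with r = -0.59.

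Of 8 relations chosen from known cell types and adjusted over these 8, Scn4b with striatal markers is given above. Kcnj13, a rectifier of choroid plexus epithelium, had r = 0.80 and rho = 0.52 with choroid plexus markers (adjusted p = 2.7e-05 and 8e-05, permutation tests, n = 58). Its value was 188 normalised read counts in HT lithium male 1 and 228 in WT vehicle female 4, and at most 60.8 in the others. Without these libraries, which also had the highest choroid plexus scores, r was 0.53. Kcnj10 had r = 0.60 with astrocyte markers (rho = 0.59, adjusted p = 2.7e-05, r = 0.51 without the 2 farthest). Kcnj8, a rectifier subunit of pericytes and smooth muscle, had r = 0.31 with mural markers (adjusted p = 0.032), which was 0.15 without HT vehicle female 3 and HT vehicle female 1 (adjusted p = 0.43), so the relation rests on those libraries. Scn1a had r = -0.31 with parvalbumin interneuron markers (adjusted p = 0.032, permutation test). Without the 2 farthest libraries, HT lithium female 2 and HT fluoxetine male 2, its r was -0.29 (adjusted p = 0.058). That list was Pvalb, Tac1, Cox6a2, Gad1, Gad2 and Slc32a1, of which not all are particular to parvalbumin cells. HT lithium female 2 had the highest score of this list (10.7) and also the highest striatal score (10.1). With the bulb score Scn1a had r = -0.32. Kcnc1 with parvalbumin interneuron markers (r = -0.016), Kcnh4 with striatal markers (0.041) and Scn7a with leptomeningeal markers (0.015) did not pass (adjusted p = 0.91 each, permutation tests).

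**Figure D3:**
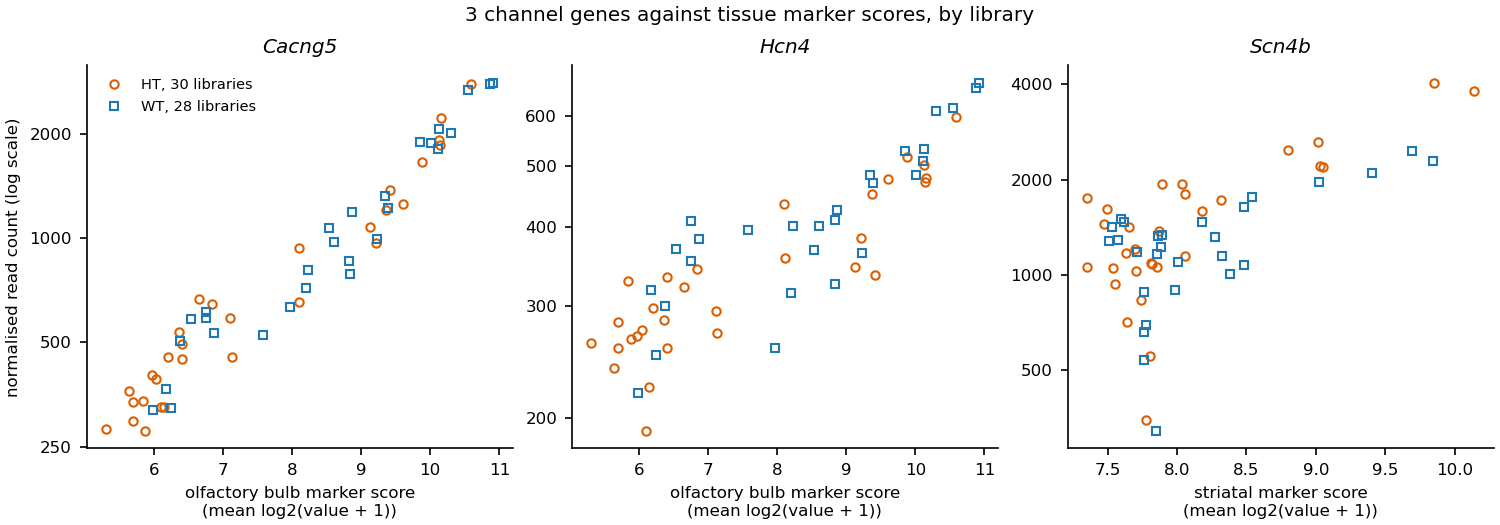
Normalised read count (log scale) of Cacng5 and Hcn4 against the olfactory bulb marker score and of Scn4b against the striatal marker score, 1 point per library, HT in orange circles and WT in blue squares. Cacng5 climbs from 281 at the lowest score to 2814 at the highest, and Hcn4 has 262 and 677 in the same libraries.

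HT was compared with WT over all treatments. Differences were tested with limma on log2(value + 1), which understates the change of low genes, and p-values were adjusted over all 16606 genes by the Benjamini-Hochberg method, with a threshold of 0.05 for a call. No channel gene was called, 0 of 83, where 1.07% of all genes were called in this comparison, 0.566% higher and 0.5% lower in HT. At an unadjusted p under 0.05 stood 21 of the 83, beside 15.2% of all genes, namely 5 of 12 sodium, 8 of 24 calcium, 6 of 43 potassium and 2 of 4 HCN channel genes. On recovered reads edgeR called 1 of them, Cacnb2, and DESeq2 called 2, Cacnb2 and Kcnq3, where edgeR called 1.01% of all genes and DESeq2 1.84%. The median log2 change was 0.01 over the 83 genes and -5.80e-06 over all genes.

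The smallest p of each class is given here as values that did not pass limma's threshold. Cacnb2, a calcium channel beta subunit, averaged 1224 ± 87.9 normalised read counts in HT and 1307 ± 87.9 in WT (SD, n = 30 and 28), a log2 change of -0.093 ± 0.025 (SE, adjusted p = 0.0527), and was below the mean of the same-sex WT group in 25 of 30 HT libraries. Kcnq3, a subunit of the M-current that restrains repetitive firing, averaged 8011 ± 974 in HT and 7284 ± 782 in WT, a log2 change of 0.14 ± 0.040 (adjusted p = 0.0696). Hcn4 averaged 345 ± 101 in HT and 423 ± 121 in WT, a log2 change of -0.29 ± 0.11 (adjusted p = 0.183). Scn3b averaged 3688 ± 315 in HT and 3900 ± 266 in WT, a log2 change of -0.086 ± 0.030 (adjusted p = 0.148). The groups overlapped for each of these 4 genes. Cacnb2 overlaps other measured genes, Gm38273 and Gm37891, whose strand was not compared with its own. How strand was used in counting is not stated by the submitters.

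Other members at an unadjusted p under 0.05 for genotype were named after their values were seen. The alpha2delta subunit Cacna2d3 averaged 2903 ± 325 normalised read counts in HT and 2597 ± 390.3 in WT, a log2 change of 0.17 ± 0.052 (adjusted p = 0.0901), and lay above the same-sex WT mean in 26 of 30 HT libraries. The TARP genes did not share a sign. Cacng3 (0.11 ± 0.036) and Cacng2 (0.11 ± 0.037) had log2 changes above 0, each with 24 of 30 HT libraries above the WT mean, and Cacng4 (-0.10 ± 0.047) and Cacng5 (-0.54 ± 0.25) had changes below 0. Cacna1h (-0.12 ± 0.047) and Cacng6 (-0.26 ± 0.13) also had changes below 0. Of the 6 potassium channel genes, 4 had changes above 0: Kcnq3, the M-current subunit Kcnq5 (0.15 ± 0.049), the Kv3 gene Kcnc2 (0.10 ± 0.034) and the inward rectifier Kcnj16 (0.11 ± 0.049). The other two were below 0: Kcnh6 (-0.22 ± 0.073, adjusted p = 0.119), at 58.9 ± 11.98 in HT and 68.9 ± 13.3 in WT, and the A-type gene Kcnd3 (-0.11 ± 0.053, adjusted p = 0.324). Among sodium channel genes Scn3a (-0.13 ± 0.050), Scn7a (-0.18 ± 0.077) and Scn9a (-0.26 ± 0.10) had changes below 0. None of these passed the threshold on adjusted p.

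The median bulb marker level was lower in HT than in WT, and these values stand beside the genotype changes. The median log2 change of the 10 bulb genes was -0.94 and each was under 0, though 0 were called, and the score averaged 7.51 ± 1.76 in HT and 8.5 ± 1.56 in WT (SD, n = 30 and 28). With the bulb score as a covariate, 13 channel genes stood at an unadjusted p under 0.05 (9.74% of all genes did), of which 6 were among the 21 before. The change of Cacng5 was -0.54 ± 0.25 without the covariate and 0.029 ± 0.065 with it. That of Hcn4 was -0.074 ± 0.058 with it. Cacnb2 had -0.095 ± 0.027 (adjusted p = 0.0842) and Kcnq3 had 0.092 ± 0.036 (adjusted p = 0.318). Of 10 immediate early genes, which report recent neuronal activity, 9 had log2 changes below 0 in HT against WT, with 2 called and a median of -0.39. Their summed counts had medians of 18551 in HT (7808 to 32808) and 19038 in WT (7231 to 33408). All 6 excitatory neuron markers had changes above 0, with 1 called and a median of 0.11, and summed medians of 63201 in HT (50655 to 69829) and 61495 in WT (47482 to 69717). The 6 oligodendrocyte and 6 microglia markers also all had changes above 0, with 0 called and medians of 0.11 and 0.080. Astrocyte markers had 5 of 7 above 0 and parvalbumin interneuron markers 2 of 6, with 0 called. The part of these lists in the genotype values was not tested.

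Fluoxetine was compared with vehicle over both genotypes. Kcnj4 rose, the only 1 of 83 channel genes called, where 2.55% of all genes were called, 1.1% higher and 1.45% lower. It is listed as ENSMUSG00000044216 at chr15:79483714-79505241 on the minus strand of GRCm38. Kcnj4 ran from 3257 to 4863 normalised read counts with a median of 4045 under fluoxetine, and from 3065 to 4092 with a median of 3645 under vehicle. The ranges overlapped, and 17 of 20 fluoxetine libraries lay above the mean of the vehicle group of their genotype and sex. The means were 4017 ± 407 under fluoxetine and 3590 ± 272 under vehicle (SD, n = 20 each), a log2 change of 0.16 ± 0.042 or 1.12-fold (limma adjusted p = 0.0277).

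Lithium against vehicle gave the same gene. Kcnj4 rose, again 1 of 83, where 2.67% of all genes were called, 1.37% higher and 1.3% lower. Kcnj4 ran from 3448 to 4711 normalised read counts with a median of 4010 under lithium, against the vehicle libraries given above, which both drugs share as controls. The means were 4004 ± 352 under lithium and 3590 ± 272 under vehicle (SD, n = 18 and 20), a log2 change of 0.16 ± 0.043 or 1.12-fold (adjusted p = 0.0337), with 16 of 18 lithium libraries above their vehicle group mean.

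Within genotypes the log2 change of Kcnj4 was 0.16 ± 0.059 in HT and 0.16 ± 0.059 in WT for fluoxetine, and 0.18 ± 0.059 in HT and 0.13 ± 0.063 in WT for lithium, none of which was called. The difference of the effects between genotypes was 0.0027 ± 0.083 for fluoxetine and 0.049 ± 0.086 for lithium (adjusted p = 0.999 and 0.998 over all genes), so neither was shown to differ. The fluoxetine call was lost without HT vehicle female 5 (adjusted p = 0.0554) or WT fluoxetine female 5 (0.057), and the lithium call without any of 6 libraries, where the adjusted p ran up to 0.0735. Leaving out 1 library at a time gave log2 changes between 0.15 and 0.18 for fluoxetine and between 0.14 and 0.17 for lithium. Females alone and males alone gave between 0.15 and 0.16 for either drug, with adjusted p between 0.167 and 0.485. Blood vessel markers moved with both drugs. All 7 mural genes had log2 changes below 0 with fluoxetine (3 called) and with lithium (1 called), and their summed counts had medians of 7239 under fluoxetine (5792 to 9380.4), 7538 under lithium (6139 to 8711) and 8261 under vehicle (6374 to 9590.3). The 10 immediate early genes had log2 changes below 0 with fluoxetine (median -0.42) and above 0 with lithium (median 0.12), with 0 called for either drug. The part of either list in the Kcnj4 result was not tested. All 10 bulb genes had changes above 0 with fluoxetine (median 0.22) and with lithium (median 0.26), with 0 called for either drug. Their summed counts had medians of 4337 under fluoxetine (1253 to 28482), 5848 under lithium (1188 to 23060) and 2698 under vehicle (1307 to 29703). Kcnj4 had r = 0.35 with the bulb score (rho = 0.39, n = 58, adjusted p = 0.017 and 0.0075, permutation tests, r = 0.37 without the 2 farthest libraries). With the bulb score as a covariate its log2 change was 0.15 ± 0.039 for fluoxetine (adjusted p = 0.0191) and 0.15 ± 0.040 for lithium (adjusted p = 0.0232), where 4.53% of all genes were called for lithium.

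Other channel genes gave values only. For fluoxetine 11 of the 83 stood at an unadjusted p under 0.05, beside 17.4% of all genes, and for lithium 9 of the 83, beside 16.9%. Among calcium channel genes the T-type pore Cacna1h averaged 2139 ± 243 normalised read counts under fluoxetine and 1910 ± 208 under vehicle, a log2 change of 0.16 ± 0.056 (adjusted p = 0.104), and lay above the vehicle mean in 19 of 20 libraries. With the bulb score as a covariate 4 channel genes were called for fluoxetine, where 4.5% of all genes were: Cacna1h (log2 change 0.14 ± 0.039), Kcnh4 (0.19 ± 0.052) and Kcnj4 (0.15 ± 0.039) rose and Kcna4 fell (-0.21 ± 0.042). Scn10a, at 11.6 ± 5.395 under fluoxetine and 6.598 ± 4.87 under vehicle, had the smallest p of the sodium channel genes (log2 change 0.89 ± 0.34, adjusted p = 0.143).

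For lithium the sodium channel gene with the smallest p was Scn2b, at 6775 ± 768 normalised read counts under lithium and 7431 ± 916 under vehicle (log2 change -0.13 ± 0.059, adjusted p = 0.243). The calcium channel gene was the R-type pore Cacna1e, at 8076 ± 667 under lithium and 8478 ± 707 under vehicle (-0.068 ± 0.040, adjusted p = 0.402). Hcn3 had 727 ± 95.8 under lithium and 663 ± 87.2 under vehicle (0.14 ± 0.058, adjusted p = 0.200). None of the 3 was called.

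**Figure D4:**
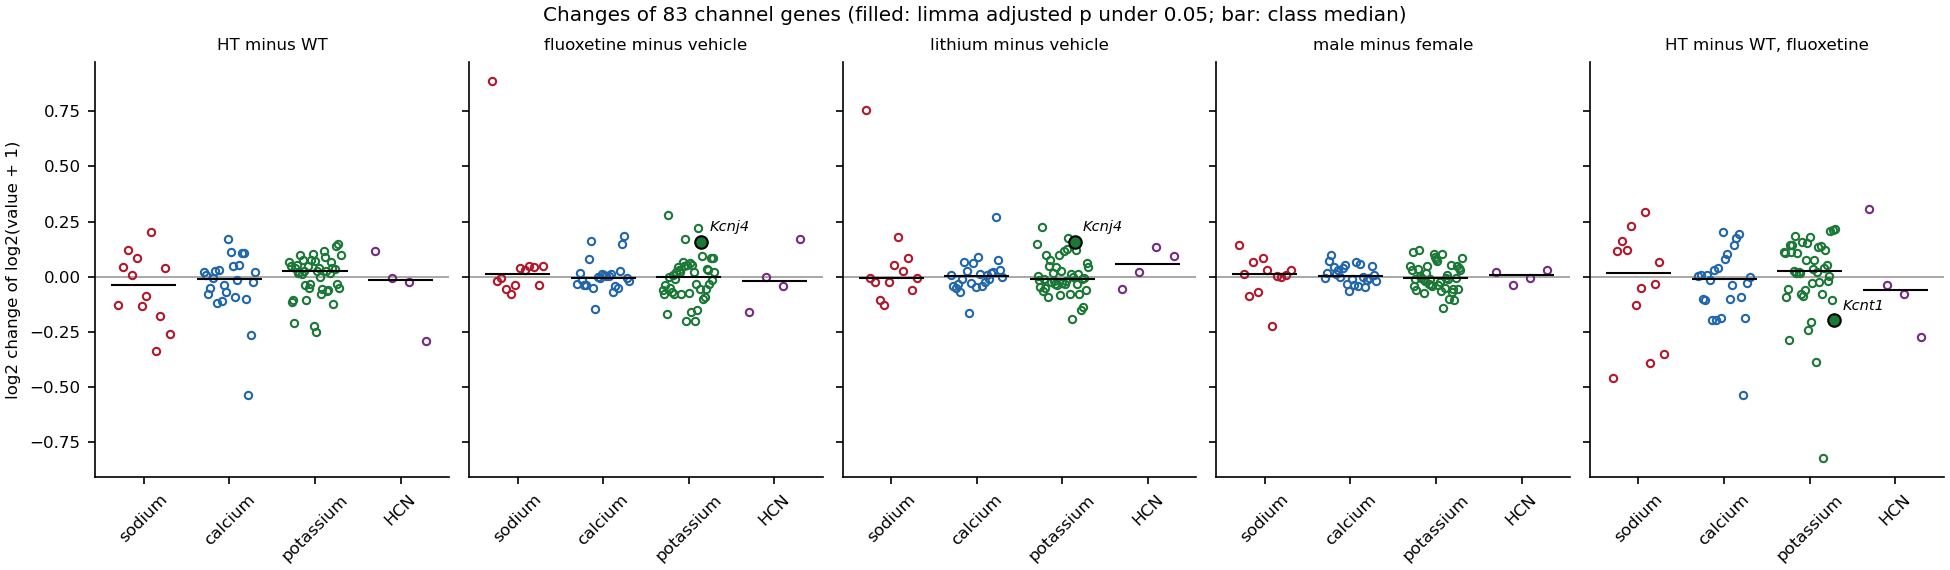
Log2 change of each of 83 channel genes in 5 comparisons, by class; filled points are called by limma (adjusted p under 0.05), open points are not, and bars are class medians. Kcnj4 is filled for both drugs at 0.16 and Kcnt1 for HT against WT under fluoxetine at -0.20.

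Among comparisons within a treatment or genotype, 1 further call was made. Kcnt1, a sodium-activated potassium channel that damps firing, fell in HT against WT under fluoxetine, 1 of 83, where 0.994% of all genes were called, 0.62% higher and 0.373% lower in HT. It is listed as ENSMUSG00000058740 at chr2:25863734-25918273 on the plus strand of GRCm38. In HT fluoxetine females Kcnt1 had 3831, 3706, 4186, 3415 and 4102 normalised read counts, and in HT fluoxetine males 4569.7, 3535, 4072, 4249.5 and 4403. In WT fluoxetine females it had 4715, 4780.2, 4850.0, 4796 and 4645, and in WT fluoxetine males 3616, 4624, 4691, 4458 and 4693. Every female HT library lay below every female WT library, whereas the males overlapped, with WT fluoxetine male 1 below 4 of the 5 HT males and HT fluoxetine male 1 above WT fluoxetine male 4. The means were 4007 ± 376 in HT and 4587 ± 358 in WT (SD, n = 10 each), a log2 change of -0.20 ± 0.048 or 0.873-fold (limma adjusted p = 0.0294), with 9 of 10 HT libraries below the same-sex WT mean.

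The change of Kcnt1 was -0.31 ± 0.062 in females alone (adjusted p = 0.0408) and -0.083 ± 0.072 in males alone (adjusted p = 0.604), and this difference between the sexes was not tested. Fluoxetine against vehicle gave 0.17 ± 0.048 for Kcnt1 in WT (adjusted p = 0.084) and 0.00016 ± 0.048 in HT, and the difference of these effects, -0.17 ± 0.068, did not pass (adjusted p = 0.964). HT against WT gave -0.027 ± 0.048 for Kcnt1 under vehicle and 0.064 ± 0.051 under lithium. The call was lost with median centring of the libraries (adjusted p = 0.051), with only the groups compared (0.143) and without any of 8 of the 20 libraries (0.053 to 0.0931), and its adjusted p ran from 0.00994 to 0.604 over the 17 other alternatives. Under fluoxetine, 9 of 10 immediate early genes had log2 changes below 0 in HT against WT, with 2 called and a median of -0.77. All 6 excitatory neuron markers had changes above 0, with 1 called and a median of 0.26, and their summed counts had medians of 63655 in HT (57536 to 68472) and 60458 in WT (47482 to 68212). All 6 oligodendrocyte markers were also above 0 (median 0.070), and 5 of 6 parvalbumin interneuron markers were below 0 (median -0.029), with 0 called in either list. The bulb score had medians of 7.26 in HT and 8.42 in WT. With the bulb score as a covariate Kcnt1 had -0.22 ± 0.046 (limma adjusted p = 0.016), and the part of the other lists was not tested.

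In the same comparison 18 of the 83 stood at an unadjusted p under 0.05, beside 18.3% of all genes, 3 sodium, 7 calcium, 7 potassium and 1 HCN. Without WT fluoxetine male 1, 7 of the 83 channel genes were called, where 6.68% of all genes were, among them Cacng3, Kcnc2, Kcnj3, Kcnq3, Kcnt1 and Scn2b.

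**Figure D5:**
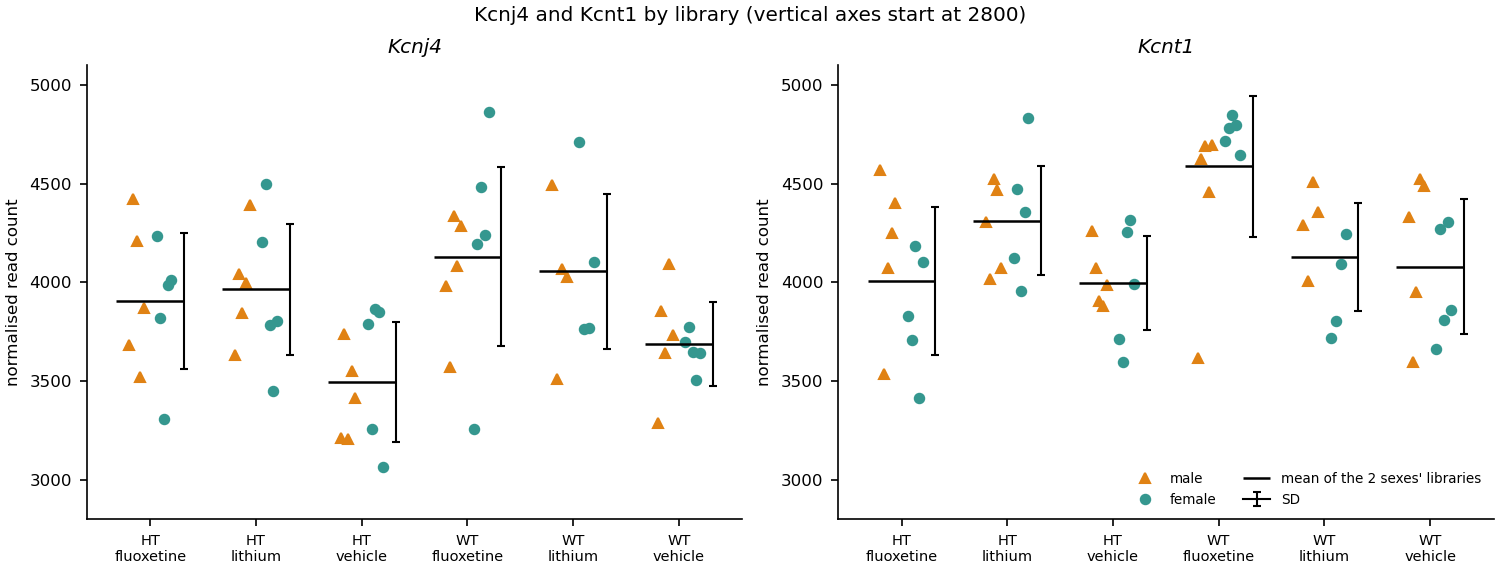
Normalised read counts of Kcnj4 and Kcnt1 in each library by genotype and treatment, males as triangles and females as circles, with the mean and SD of each pair of sexes; the vertical axes start at 2800. The mean of Kcnj4 is higher under either drug than under vehicle in both genotypes, with overlapping points, and the mean of Kcnt1 is highest in WT fluoxetine, at a mean of 4587.

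No channel gene was called in HT against WT under vehicle (0.0181% of all genes were) or under lithium (0.012%). At an unadjusted p under 0.05 stood 5 of the 83 under vehicle, beside 5.76% of all genes, and 3 under lithium, beside 5.34%. Fluoxetine called none in HT, where 0% of all genes were called, or in WT (0.367%), where 0.157% were called higher and 0.211% lower. At an unadjusted p under 0.05 stood 4 of the 83 in HT, beside 9.19% of all genes, and 12 in WT, beside 13.4%. Lithium called none in HT (0.385%), where 0.169% of all genes were called higher and 0.217% lower, or in WT (0.0301% in all). At an unadjusted p under 0.05 stood 5 of the 83 in HT, beside 12.2%, and 5 in WT, beside 9.38%. Neither difference of a drug effect between genotypes gave a call (0% of all genes), with 2 of the 83 at an unadjusted p under 0.05 for fluoxetine, beside 4.78% of all genes, and 0 for lithium, beside 3.67%. Males against females gave 0 of 83, where 0.114% of all genes were called, 0.0361% higher and 0.0783% lower in males. At an unadjusted p under 0.05 stood 1 of the 83, beside 7.56% of all genes. That gene was Cacnb2, at 1294 ± 97.8 normalised read counts in males and 1235 ± 87.2 in females (SD, n = 29 each), a log2 change of 0.068 ± 0.025 (limma adjusted p = 0.553). Kcnc4 had -0.073 ± 0.043 and Hcn2 had -0.038 ± 0.021 between the sexes (adjusted p = 0.704 and 0.698).

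A list of 56 companion genes held other potassium channels, auxiliary subunits and anchoring proteins, and all but Nalf1 and Nalf2 were tested. HT against WT over all treatments called 1 of 54, with none lower, beside 1.07% of all genes (0.566% higher): Kcnn1, a calcium-activated potassium channel of the afterhyperpolarisation, rose by 0.14 ± 0.036 on the log2 scale (1.102-fold, limma adjusted p = 0.0336). Lithium called 2 of 54, both lower, beside 2.67% of all genes (1.3% lower). Rims1, an active zone protein that binds calcium channels, had a log2 change of -0.39 ± 0.080 (0.761-fold, adjusted p = 0.00414), and Kcnab2, the beta2 subunit of Kv1 channels, had -0.15 ± 0.037 (0.900-fold, adjusted p = 0.0151). Fluoxetine over both genotypes called 0 of 54, beside 2.55% of all genes, with 21 above and 33 below 0. In the 10 remaining comparisons none of the 54 was called.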

How the data were processed

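RNA of mouse prefrontal cortex was sequenced after library preparation with a stranded mRNA kit (TruSeq), per the labels' protocols. The deposited table gives a signal per gene, in which the authors had scaled each library's reads by a single size factor. Salmon 0.11.2, R 3.6.0, DESeq2 1.19.11 and the build GRCm38 are named in the submitters' processing notes. Whole reads were recovered for 100% of values at a tolerance of 0.0001. GENCODE M21 on GRCm38 named 18077 of 18088 IDs and gave exon lengths, counting each base in any annotated exon of a gene.

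The main test was limma 3.58.1 (R 4.3.3) with a trended prior on log2(value + 1), over the 16606 genes whose mean reached 10. It fitted 12 group means to 58 libraries, leaving 46 residual degrees of freedom, and weighted groups equally. Correlations across libraries used 100000 permutations. The script was tested on simulated data. Alternatives included edgeR 4.0.16 (17757 genes) and DESeq2 1.42.0 on recovered reads, covariates, scalings, weights, each sex alone and each library left out.

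The genes to name were those called, the 3 highest and the lowest per class, those with the smallest p per class, the 5 most variable and those of 8 marker relations; others are named as examples seen in the data. Some genes the rule names are not reported here. The members and lists were chosen with earlier results of these data known. Of the 85 members, 19 overlap another measured gene on either strand, among them Scn1a, Cacnb2, Cacng7, Cacna1c, Cacna1d, Kcna6, Kcnd3 and Kcnj13. The sources do not say how strand entered the counting.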

Additional observations from a re-analysis of the deposited data

Results flagged for a closer look

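Of the channel genes given by library, 5 (Kcnj4, Kcnt1, Cacng5, Scn4b and Kcnj13) were checked in each of the 12 groups. Dixon's test at the 95% level looked for a library far from the others of its group. It flags about 1 in 20 groups by chance. Cacng5 and Scn4b were named for their large spread in these same data, so the flags cannot be set against that rate. Of 60 groups so tested, 9 held such a library. Kcnt1 had 3616 normalised read counts in WT fluoxetine male 1, below the next lowest at 4458. Cacng5 was highest by a wide gap in HT fluoxetine male 2 (1926), HT lithium male 2 (2780.3) and HT vehicle male 5 (1855), where the bulb scores were 10.1, 10.6 and 10.1. Scn4b had 4042 in HT vehicle female 5, against 1173 for the next. Kcnj13 was high in HT lithium male 1 (188), HT vehicle male 5 (50.9) and WT vehicle female 4 (228), and low in WT lithium male 3 (33.3).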

How the results depend on the processing

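Of 2402 log2 changes of named channel genes recomputed under alternatives, 2372 kept their side of the threshold, 7 lost a call and 23 gained one. Most of these changes were not called in the main fit. Among the called ones, Kcnt1 stayed called in 14 of 17 alternatives and Kcnj4 in 15 of 17 for each drug. With a library left out, Kcnt1 stayed called in 12 of 20 fits, and Kcnj4 in 38 of 40 for fluoxetine and 32 of 38 for lithium. Values called in either fit reversed in 0 cases, and a change of sign without a call in either fit was counted as kept. HT against WT over all treatments gave 1 call (Cacnb2) with a minimum mean of 50, upper-quartile rescaling, the striatal covariate, the bulb and striatal covariates or edgeR, and 2 with array weights or DESeq2. Fluoxetine over both genotypes gave 3 with array weights, 4 with the bulb covariate alone or with the striatal one, and 0 in females or males alone. Lithium over both genotypes gave 3 with array weights and 0 in females or males alone. HT against WT under fluoxetine gave 0 with median centring, only the groups compared or males alone, and 4 with array weights or DESeq2. Fluoxetine in WT gave 5 with array weights, 1 in females alone or with DESeq2, and 2 with the bulb covariate, alone or with the striatal one. The cause of these differences was not tested, and each sex alone also has fewer libraries. Leaving out a library gave 0 to 3 calls for HT against WT over all treatments, 0 to 7 for HT against WT under fluoxetine (7 without WT fluoxetine male 1), 0 to 2 for fluoxetine in WT, 0 to 2 for each drug over both genotypes, and 0 in the other comparisons. The libraries whose removal ended the Kcnt1 call were WT fluoxetine male 2, 3 or 5, WT fluoxetine female 3 or 4, HT fluoxetine female 2 or 4 and HT fluoxetine male 2. The lithium call of Kcnj4 was lost without HT lithium female 2, HT vehicle female 2 or 5, WT lithium female 1, WT lithium male 1 or WT vehicle male 1. Without the 2 farthest libraries, r was 0.15 for Kcnj8 with mural markers and -0.29 for Scn1a with parvalbumin markers, neither past the threshold. Replicate numbers, taken from the titles, showed no pairing on average. Residuals of libraries with the same number had a mean r of -0.0031 over 309 pairs, beside 0.0009 for different numbers. Single pairs reached 0.576 and 0.586, and 8 libraries correlated best with their own number. In WT lithium males, titles and library names number some libraries differently. A mean over all pairs cannot exclude pairing between some groups. With the replicate number as a block, 1 gene each was called for fluoxetine, for lithium and for HT against WT under fluoxetine, and 0 elsewhere. The median log2 change of all genes lay between -0.0142 and 0.0147 with upper-quartile rescaling, and between -0.00542 and 0.00216 as deposited. The bulb covariate and the scan of all members were added after the data had been seen. Depth limits Scn10a, Kcnj5 and Kcnh8, with the lowest means past the minimum (10.1, 12.6 and 18.5 normalised read counts).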
